A study of Mus musculus with 5 samples.

Results

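CpG methylation (mC) inside the protein-coding genes of the X chromosome was read on the inactive (Xi) and the active X (Xa) of the same cells. Gene body positions were taken as X-linked CpG cytosines that lie within a protein-coding gene of the GENCODE M21 annotation, more than 2 kb from every annotated transcript start, with at least 10 calls in every library on the allele described. Each cytosine of a CpG, on either strand, counted as 1 position. Of 3146 X positions with that depth on the Xa, 434 in 97 genes were in gene bodies, and of 2664 on the Xi, 358 in 93 genes were. Both alleles were measured at 236 positions in 64 genes, which gave the paired values, and 556 positions in 118 genes were measured on at least 1 allele. These 118 genes were a small share of the 948 protein-coding genes annotated on the X.

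Female mouse embryonic fibroblasts (MEFs) were used, of embryonic day 13.5 from 129/C57 dams and CAST sires. All carried Xist-deltaA/+, a deletion in Xist on the maternal domesticus X that makes the paternal castaneus X the inactive one, and all were transduced with retrovirus and selected with puromycin. The Female control group (n = 3 libraries) was Setdb1+/+ with a nonsilencing short hairpin RNA, and the Setdb1 depleted group (n = 2) was Setdb1+/gt, heterozygous for a gene trap, with a hairpin against Setdb1, so that genotype and hairpin differed together. Enhanced reduced representation bisulphite sequencing (eRRBS) gave 9440874 to 10558931 CpG calls per library and allele, 119431 to 174461 of them on the X.

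Setdb1 is a histone H3 lysine 9 methyltransferase, and the comparison asks whether its depletion changes mC on the Xi. In X inactivation, Xist RNA silences most genes of 1 X in female cells, and CpG islands at the promoters of silenced genes gain mC. Gene bodies are known for the opposite pattern, in which transcribed genes carry high mC along their length and silent copies carry less. Because the Xi was always castaneus and paternal here, inactivity, strain and parent of origin cannot be told apart on the X. The autosomal castaneus minus domesticus difference in the same libraries was therefore given as background. The labels do not say whether the libraries came from separate embryos, so p-values of the permutation tests measure only the spread between these libraries. Those for single genes and positions come from a model and rest largely on call counts and a dispersion shared over the genome.

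The reference sequences below are from places with large allele differences, in Araf, Tmem164 and Gm15155, together with CpG-rich places of Bcor and Nhsl2, that of Bcor being the place with the most paired positions. They are from GRCm38 (mm10), plus strand, 5′ to 3′, and capitals mark the CpGs whose methylation was measured on at least 1 allele. The Araf place is chrX:20819564-20819672, in an intron, with 4 measured CpGs of 5. The Tmem164 place is chrX:142696571-142696652 and the Gm15155 place is chrX:156202298-156202379, both in an intron and in a masked repeat. The Bcor place is chrX:12087283-12087519, in an intron and a CpG island, with 20 measured CpGs of 30. The Nhsl2 place is chrX:101954205-101954429, in an intron and in no island as called here, with 15 measured CpGs of 24.
Araf: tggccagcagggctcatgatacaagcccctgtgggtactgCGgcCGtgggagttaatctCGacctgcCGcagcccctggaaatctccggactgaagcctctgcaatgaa
Tmem164: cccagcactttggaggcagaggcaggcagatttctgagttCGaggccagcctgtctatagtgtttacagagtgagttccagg
Gm15155: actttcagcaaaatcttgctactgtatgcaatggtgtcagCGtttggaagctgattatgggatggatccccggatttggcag
Bcor: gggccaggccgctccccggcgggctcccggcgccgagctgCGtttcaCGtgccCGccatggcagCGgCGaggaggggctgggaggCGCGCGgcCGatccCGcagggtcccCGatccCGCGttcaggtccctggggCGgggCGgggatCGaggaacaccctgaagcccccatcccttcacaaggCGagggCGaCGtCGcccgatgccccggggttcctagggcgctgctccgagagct
Nhsl2: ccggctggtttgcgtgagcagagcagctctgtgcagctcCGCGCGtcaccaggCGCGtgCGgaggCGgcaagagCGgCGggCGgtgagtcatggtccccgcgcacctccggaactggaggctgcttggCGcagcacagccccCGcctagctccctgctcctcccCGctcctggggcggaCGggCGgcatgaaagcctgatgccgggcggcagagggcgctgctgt

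Their base composition was uneven. The Bcor stretch is 75.5% G and C and the Nhsl2 stretch 72.4%, whereas the Gm15155 stretch is 46.3% and holds 2 CpGs. The enzyme MspI cuts at the letters CCGG, which every stretch but that of Tmem164 contained at least once.

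Averaged over all paired positions, X gene bodies had nearly the same mC on both alleles, a mean that rested on few genes. Over the 236 paired positions, Xi mC was 53.6, 54.9 and 53.1% in control replicates 1 to 3 and 51.3 and 52.2% in depleted replicates 1 and 2, the order in which libraries are listed throughout. Xa mC was 54.1, 54.1, 52.7, 52.9 and 54.5%. Control libraries fell on both sides of equality and both depleted libraries had less mC on the Xi. Xi minus Xa was -0.671 percentage points ± 1.29 (SD, n = 5; exact sign-flip permutation, two-sided, p = 0.375, over 32 sign patterns, too few for 5 libraries to reach 0.05). In 14633 autosomal gene body positions castaneus minus domesticus was 0.0991 points ± 0.178, and the X differed from that by -0.770 points (exact sign-flip p = 0.375). Size and sign of both X values rested on single choices. They were 0.219 and 0.120 points without Bcor, 1.12 and 1.01 points outside repeats, and 0.283 and 0.202 points without depleted replicate 2. They were -2.88 and -2.98 points without Araf, -3.26 and -3.27 points over 5 kb from starts, and -3.47 and -3.94 points at the 25 positions with at least 40 calls, and in each of these last 3 cases 5 of 5 libraries were lower, the smallest exact p that they allow.

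This was unlike the neighbourhood of transcript starts. At 692 paired X positions within 2 kb of a start, 5 of 5 libraries had more mC on the Xi, by 32 points ± 3.02, and its mC was 52.5% ± 1.54 (SD, n = 3) in controls against 18.8% ± 0.126 on the Xa. The gene body positions lacked an allele difference of that size.

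The near equality of the means was made of positions that were mostly either methylated or unmethylated. On the Xa, 216 of 434 positions (49.8%) had a mean over libraries of 80% mC or more, 130 (30.0%) had 20% or less and 88 (20.3%) lay between. On the Xi, 142 of 358 (39.7%) had 80% or more, 103 (28.8%) had 20% or less and 113 (31.6%) lay between. The median position had 79.9% mC on the Xa and 69.2% on the Xi. These are different sets of positions. At the 236 paired positions the medians were 75.1% on the Xa and 68.3% on the Xi, and 44.5% and 41.1% had 80% or more. Among paired positions, 76 had 80% or more on both alleles and 69 had 20% or less on both. Of the others, 27 were at 80% or more on the Xa with an intermediate level on the Xi, and 18 were the other way round. Extreme opposites were few, with 2 positions at 80% or more on the Xa and 20% or less on the Xi and 3 the reverse.

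**Figure D1:**
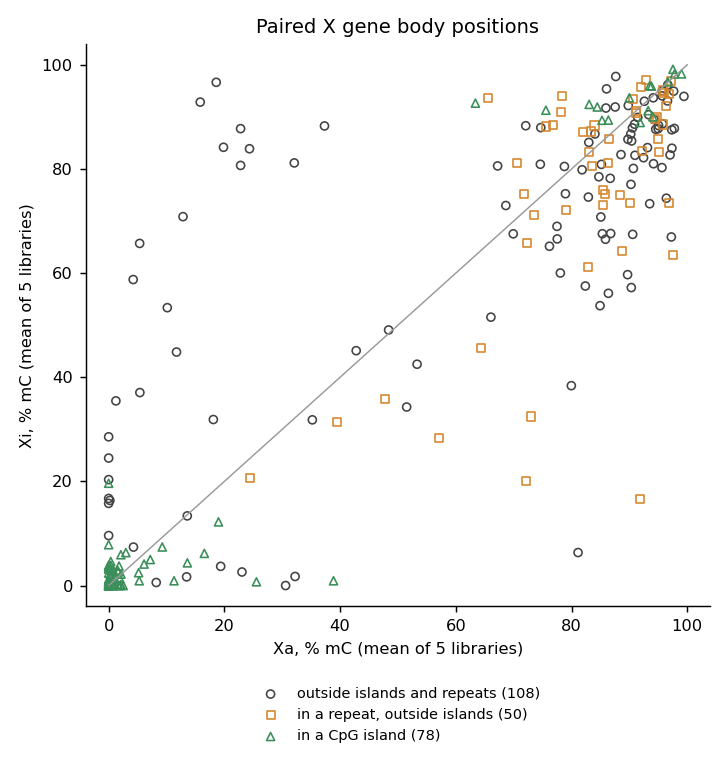
Mean mC over 5 libraries on the Xa (horizontal, %) and on the Xi (vertical, %) at the 236 paired gene body positions, with symbols for CpG islands, repeats and other positions and a line of equality. Most points sit near 0 or near 100 on both alleles, and a group at the upper left, with over 50% on the Xi and under 40% on the Xa, lies outside islands and repeats.

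Taken gene by gene, most X gene bodies had less mC on the Xi. With all paired positions of a gene averaged first, 46 of 64 X genes (71.9%) had less mC on the Xi and 18 more, with a median of -5.16 points and quartiles of -12.6 and 0.696 points. Of 3569 autosomal genes measured the same way, 49.4% were lower on castaneus, with a median of 0.0892 points. Weighting each X gene equally gave Xi minus Xa of -4.34 points. Bcor alone supplied 69 of the 236 paired positions and 60 of the 78 that lie in islands.

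The allele difference varied with where a position lay, which is given as values without a test other than that for islands. Island positions (78) differed by 0.371 points ± 1.24 and other positions (158) by -1.19 points ± 1.76 over the 5 libraries, or by -4.58 points ± 1.42 without Araf. The contrast of 1.56 points did not exceed the spread of the libraries (exact sign-flip permutation, two-sided, p = 0.1875), was -1.33 points outside repeats, and was 3.50 points without depleted replicate 2, 2.45 without control replicate 2, 4.95 without Araf, 5.79 without Bcor and 0.524 without Asmt, which holds 16 of the 18 island positions outside Bcor. With each gene weighted equally it was 10.5 points. In repeats (52 positions) the Xi was lower in 5 of 5 libraries, by 7.0 points ± 1.57, with 35 positions lower and 16 higher. These X positions include one of Tmem164 at -75.2 points and those of Gm15155 at -52.0 and -40.6 points. In 957 autosomal gene body positions in repeats the castaneus minus domesticus difference was 0.0307 points. Sequences poor in CpG showed the same direction, as 66 positions with 0 to 5 CpGs in the surrounding 200 bp were lower on the Xi by 6.70 points ± 2.60 in 5 of 5 libraries. At 6 to 10 CpGs the mean difference was 2.22 points with Araf, although 48 of 79 positions were lower, and -4.56 points ± 1.52 without it, lower in 5 of 5 libraries. At 11 to 15 it was 2.32 points and at 16 or more 0.933 points. The same Tmem164 and Gm15155 positions lie in the CpG-poorest class. Places far lower on the Xi, as in Tmem164, Gm15155 and Foxo4, were not left out on their own as Araf was. Values without Araf are therefore trimmed on the high side only.

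The difference also varied with distance from the transcript start. Between 2 and 5 kb (41 positions) the mean difference was 11.6 points ± 3.81, but this came from the 8 positions of Araf, and without them it was -0.667 points ± 2.82, with 18 positions lower and 15 higher. From 5 to 10 kb (113 positions) the difference was -1.42 points ± 1.82, from 10 to 50 kb (64 positions) -4.67 points ± 1.05 and beyond 50 kb (18 positions) -9.80 points ± 2.30, with 5 of 5 libraries lower in both of the last classes. Positions in coding exons (51) had -3.42 points ± 2.19 and intronic positions (180) 0.0649 points ± 1.69, or -2.83 points ± 1.49 without Araf. The classes of distance, CpG density and repeats overlap, and their separate parts were not tested.

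**Figure D2:**
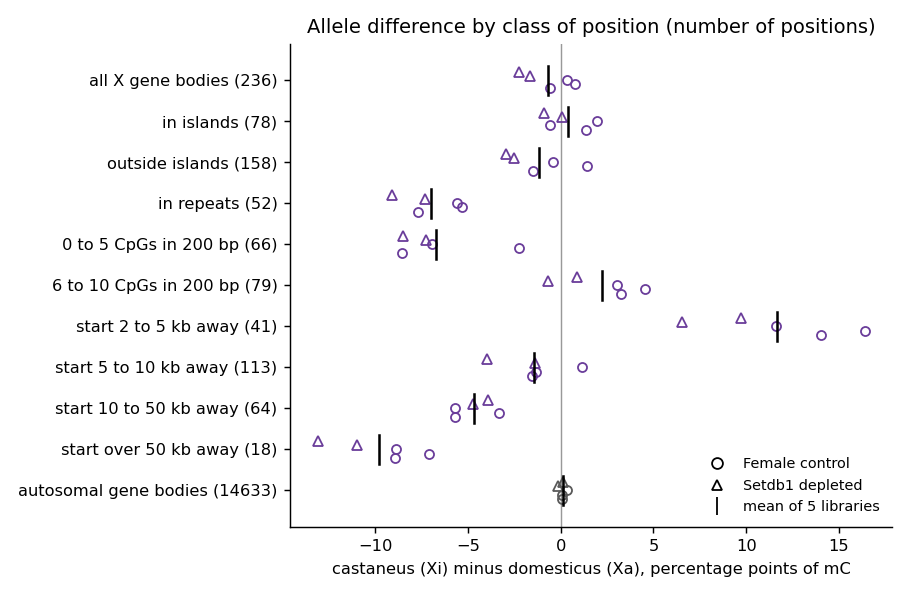
Castaneus (Xi) minus domesticus (Xa) mC in percentage points for classes of X gene body positions and for autosomal gene bodies, with 1 symbol per library (circles, Female control; triangles, Setdb1 depleted) and a bar at the mean of 5 libraries. The class 2 to 5 kb from a start, which holds Araf, lies right of 0 in every library, and the repeat, CpG-poor and distant classes lie left of it in every library.

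Single gene bodies differed much more than the mean did. Of 23 X genes with at least 3 paired positions, 11 passed an adjusted p of 0.05 between the alleles, 8 with less mC on the Xi and 3 with more (quasi-binomial logistic model of the calls with limma-moderated dispersion, Benjamini-Hochberg over 1899 genes of all chromosomes). These are 34.8% and 13% of the 23 genes, where over all 1899 genes 5.58% passed with castaneus lower and 5% with castaneus higher. Gene values are given with the calls summed over the paired positions.

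Araf, a serine/threonine kinase of the RAF family in growth factor signalling, had the largest difference of these genes. Its 8 positions form 1 place in an intron, 4182 to 4210 bp from the nearest start, and had Xi mC of 83.6, 89.9, 76.6, 78.3 and 79.8% and Xa mC of 13.7, 12.3, 17.6, 22.3 and 29.7% (336 to 410 Xi calls and 379 to 664 Xa calls per library). No Xa library reached the lowest Xi library. The Xi was higher by 62.5 points ± 11.1 (SD, n = 5; quasi-binomial model, adjusted p = 3.46e-09), and each of the 8 positions passed on its own.

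Gm45194, a predicted gene measured in 6 positions of 1 repeat, was also higher on the Xi, by 10.0 points ± 7.07 (adjusted p = 0.0275), a call lost without control replicate 3 or depleted replicate 1, with 8.48 and 8.18 points.

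Tmem164, which encodes a transmembrane protein, had the largest loss on the Xi. Its 3 positions had Xi mC of 40.4, 47.5, 55.6, 46.8 and 38.5% against Xa mC of 91.8, 85.1, 90.6, 90.4 and 89.8%. Every Xa library was above every Xi library. The difference was -43.8 points ± 7.6 (adjusted p = 1.36e-06), and it was largest at the repeat whose sequence is given above, where Xi mC was 10.5, 17.3, 17.1, 27.8 and 10.8% and Xa mC 95.2, 84.4, 91.8, 92.9 and 95.2%. At its other paired place, outside repeats, the Xi was lower by 25.4 points.

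Further genes were lower on the Xi by smaller amounts. Fam120c differed by -14.6 points ± 5.26 (adjusted p = 0.00245) and the predicted gene Gm15155 by -14.3 points ± 6.50 (adjusted p = 0.00718). The difference in Gm15155 rested on 1 CpG, -46.3 points ± 15.1 over its 2 positions, while the mean of the other 4 paired positions was higher on the Xi by 5.75 points ± 4.40, in 5 of 5 libraries. Eda, the ectodysplasin ligand needed for hair and sweat glands, had Xi mC of 80.3, 79.4, 73.5, 77.6 and 74.8% against Xa mC of 95.0, 91.1, 90.5, 86.0 and 89.3%, a difference of -13.3 points ± 3.30 (adjusted p = 0.00284). In Eda as in Tmem164 the alleles did not overlap in any library. Tceanc, which has a domain of the elongation factor TFIIS, Slc9a7, a sodium/proton exchanger of the Golgi, and Il1rapl2, a relative of the interleukin-1 receptor accessory protein, differed by -11.4 points ± 3.56, -9.35 points ± 6.02 and -8.88 points ± 4.80 (adjusted p = 0.0196, 0.0199 and 0.0229 in the quasi-binomial model). These last 3 calls rested on single libraries. Tceanc was lost without control replicate 1 (-10.9 points), control replicate 2 (-11.1) or depleted replicate 1 (-10.4). Slc9a7 was lost without control replicate 3 (-7.91 points), depleted replicate 1 (-8.98) or depleted replicate 2 (-8.04), and Il1rapl2 without the same libraries (-8.62, -7.59 and -7.93 points).

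All 4 positions of Slc9a7 and all 13 of Gm15155 lie in masked repeats, as do 4 of the 8 paired positions of Il1rapl2. The 12 genes that did not pass ranged from negative to positive values and included Vegfd, a lymphatic growth factor (adjusted p = 0.0636), and Rlim, a ubiquitin ligase that acts in X inactivation (adjusted p = 0.0702). Trpc5, a cation channel, shares its positions with Trpc5os, which overlaps it, and both stood at -5.06 points (adjusted p = 0.156). The signs of all 11 genes past the threshold held in 5 of 5 libraries, but limma on log2 ratios of the calls, which called 7 of the 23 (30.4%) and 4% of all genes, did not call Gm15155, Slc9a7, Il1rapl2 or Gm45194 (adjusted p = 0.0666, 0.0947, 0.0952 and 0.121).

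**Figure D3:**
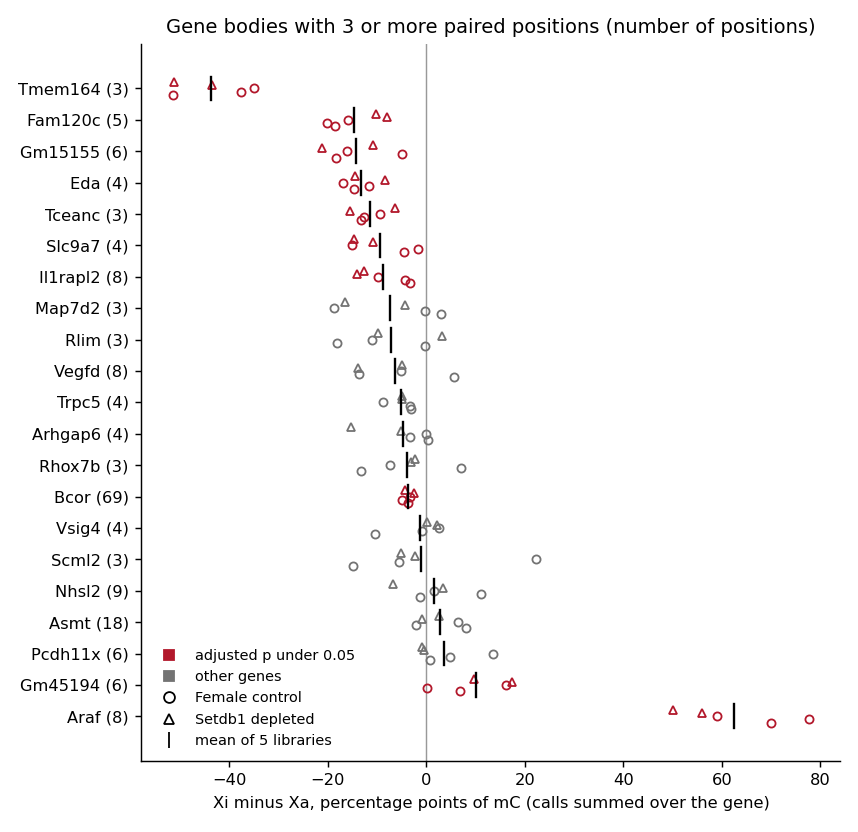
Xi minus Xa mC in percentage points, with calls summed over the paired positions, for X genes with 3 or more of them (number in brackets; 21 genes are drawn, and Trpc5os, with the positions of Trpc5, and 1 gene not reported here are left out). Symbols are libraries (circles, Female control; triangles, Setdb1 depleted), bars their mean and red marks genes past the adjusted threshold, from Tmem164 at -43.8 to Araf at 62.5 points.

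Bcor, the BCL6 corepressor that acts in a Polycomb complex, was the most densely measured gene body. Its 69 paired positions had Xi mC of 3.91, 4.06, 4.45, 3.63 and 3.26% and Xa mC of 7.67, 8.98, 7.69, 6.23 and 7.57%, from 2709 to 3554 Xi and 3028 to 3420 Xa calls per library. All Xi libraries were below all Xa libraries, with a difference of -3.77 points ± 0.903 (adjusted p = 1.92e-05), which was -2.24 points at positions with more than 20 calls. Its 11 paired places differed among themselves. The island place shown above, with 22 positions, had almost no mC on either allele, with a mean of 1.12% on the Xi and 0.637% on the Xa. A further island place, chrX:12140210-12140282, measured at 24 positions on the Xa and 4 on the Xi, had 18.1% on the Xa and 0.861% on the Xi, and at its 4 paired positions the Xi was lower by 19.4 points ± 4.00. Close to the first island, at 2 intronic positions of chrX:12086803-12086829, the Xa had 37.8, 24.0, 27.2, 21.4 and 46.5% and the Xi 0, 0, 0, 4.35 and 0%.

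Nhsl2, a relative of the Nance-Horan syndrome gene, is described because of its positions, after their values were seen. Its gene total did not pass the threshold between the alleles (1.61 points ± 6.46, adjusted p = 0.703), whereas its mean over positions was 12.6 points higher on the Xi. Its places had opposite signs. At the 5 paired positions of the CpG-rich place shown above, Xi mC was 13.7, 22.2, 22.9, 13 and 11.1% and Xa mC 0, 0.212, 0, 0 and 0%. Over all 15 Xa positions of that place, 1 of 4948 calls was methylated. At another pair of intronic positions, chrX:101942679-101942689, the Xi was higher by 31.4 points ± 16.4, and at the single paired position chrX:101992863 it was lower by 31.2 points ± 15.3.

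Positions were also tested one by one, over 83840 positions of all chromosomes that had the depth on both alleles. Of the 236 paired gene body positions, 46 passed an adjusted p of 0.05, 21 lower on the Xi (8.90%) and 25 higher (10.6%). Over all 83840 positions 1.18% were lower on castaneus and 1.68% higher, and over the 14633 autosomal gene body positions 1.69% were lower and 2.02% higher. The lower positions were spread over 13 genes and 16 places, with a median difference of -30.5 points, and the higher ones over 9 genes and 11 places, with a median of 34.2 points. Islands held 2 of each. limma called 28 of the 236 (11.9%) and 1.57% of all positions. Many of these positions share reads with a neighbour and are not separate observations.

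Higher positions were concentrated in few genes. Araf had 8, Nhsl2 7, and Asmt, Fgf13, Gm45194 and Pcsk1n 1 each. Together Araf and Nhsl2 held 15 of the 25.

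Lower positions were found in Bcor (7), Gm15155 and Tmem164 (2 each), and once each at 10 other places. The largest of the single ones, named after their values were seen, was in a coding exon of Foxo4, a forkhead transcription factor, where 1 position had 0 to 10.5% mC on the Xi and 71.4 to 86.0% on the Xa, a difference of -74.8 points (adjusted p = 7.9e-17). Mamld1, a mastermind-like gene, followed with an intronic position at -41.6 points. The only other paired position of Foxo4, in the same place, differed by 0.698 points, and the opposite cytosine of its lower CpG was not paired. At the repeat of Gm15155 both strands of 1 CpG were lower on the Xi, by 52.0 and 40.6 points, with levels of 22.8, 36.5, 25.6, 24.3 and 22.1% on the Xi and 87.2, 59.6, 68.8, 76.6 and 70.7% on the Xa.

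Whether castaneus keeps the CpG at each position was not tested, as its variants were not used here. Of the 21 lower positions, 1, in Bcor (chrX:12086829), had no methylated Xi call in any library (0 of 142 calls, which allows up to 2.11%), and the others had methylated Xi calls. Of the 25 higher positions, 7 had no methylated Xa call in any library. Where the opposite cytosine of the same CpG was also paired, it went the same way at 2 of 2 lower and 10 of 10 higher positions. The Xi and Xa ranges over the 5 libraries were apart at 18 of the lower and 20 of the higher positions.

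**Figure D4:**
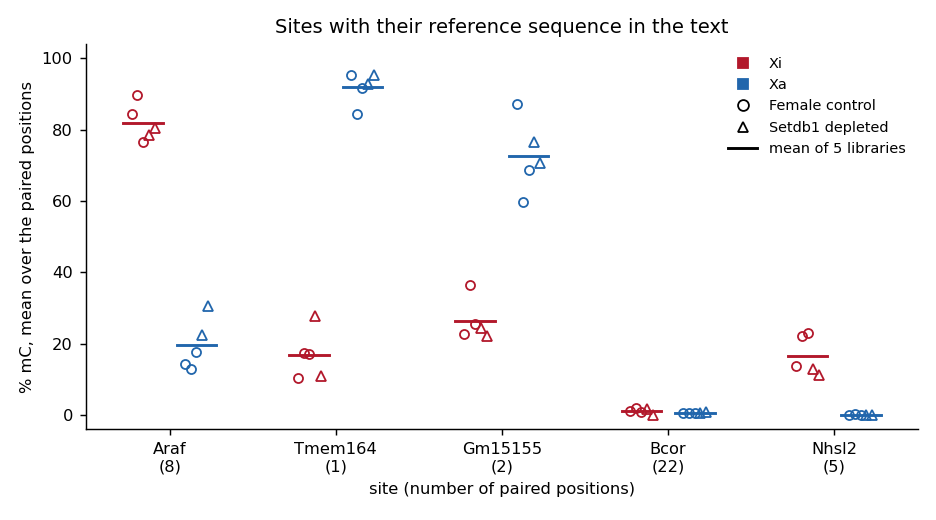
Mean mC (%) over the paired positions of the 5 places whose reference sequences are given, in each library on the Xi (red) and the Xa (blue), with circles for Female control, triangles for Setdb1 depleted and bars at the mean of 5 libraries. Araf and Nhsl2 are higher on the Xi, Tmem164 and Gm15155 are lower, and the Bcor place is near 0 on both.

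The genes were also grouped by lists of what they do, and each list had few measured members. Of 8 genes known to escape X inactivation in mouse, 3 were measured. Shroom4, an actin-binding protein, had 1 paired position, with a lowest level of 66.7% and a median of 75% on the Xi and 91.2 to 100% on the Xa. Mid1, a ubiquitin ligase, and Pbdc1 were measured on the Xa alone, with 76.5 to 100% and 76.5 to 94.6% mC. No escape gene had 3 paired positions, so no gene of this list had a test of its own.

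Among 37 listed chromatin and transcription regulators 7 were measured and 5 were paired, 2 lower and 3 higher on the Xi with a median of 0.0788 points against -5.16 for all 64 paired X genes. Bcor passed, with less mC on the Xi. Elk1, an ETS factor, had 83.6 to 100% on the Xi and 83.3 to 100% on the Xa at both strands of 1 coding CpG. Of 35 genes of neurons and synapses 8 were paired, 5 lower and 3 higher, with a median of -7.30 points. Il1rapl2 passed, Pcdh11x, a protocadherin, did not (3.51 points ± 6.05, adjusted p = 0.357, and 0.989 points without control replicate 3), and Fgf13, an intracellular fibroblast growth factor homologue, had 2 positions with 17.7 points ± 9.13.

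Of 30 genes restricted to muscle, blood and other tissues 3 were paired, with a median of -1.95 points. Eda passed, and Cacna1f, a calcium channel of the retina, stood at -1.95 points ± 14.9. Of 33 germ line genes 2 were paired, Akap4 of the sperm tail at -7.10 points ± 4.19 and the homeobox gene Rhox1 at -13.2 points ± 14.2, and Mageb4 was measured on the Xi alone, at 40.6 to 74.3%. Of 40 broadly expressed genes 2 were paired, the glypican Gpc3 at -8.51 points ± 13.9 and the actin crosslinker Flna at 13.3 points ± 13.7, while the proteoglycan Bgn was measured on the Xi alone, at 79.5 to 94.4%. The differences of Cacna1f, Rhox1, Gpc3 and Flna were smaller than their SD over libraries. Asmt, the last enzyme of melatonin synthesis and pseudoautosomal in mouse, was in no list and had 18 paired positions. Its mC was 88.4 to 96.4% on the Xi and 88.4 to 90.5% on the Xa, and the gene did not pass (2.81 points ± 4.41, adjusted p = 0.344).

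Gene body mC on the Xi was slightly lower in the Setdb1 depleted libraries. Over 358 positions, with medians of 31.5 to 38 calls, Xi mC was 55.3, 56.0 and 54.9% in controls and 53.5 and 54.1% in depleted libraries. The groups did not overlap. Controls averaged 55.4% ± 0.566 (SD, n = 3) and depleted libraries 53.8% ± 0.458 (SD, n = 2). They differed by -1.63 points (exact label permutation, two-sided, p = 0.1, which no design of 3 against 2 libraries can go below). With calls pooled over positions the difference was -0.552 points.

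The Xa values of the groups overlapped. Over 434 positions its mC was 58.2, 58.8 and 57.6% in controls and 57.9 and 58.5% in depleted libraries, a difference of -0.0126 points with overlapping groups (exact permutation p = 1) whose sign depended on the positions used. At paired positions, controls had an Xi minus Xa of 0.191 points (SD 0.678, n = 3) and depleted libraries one of -1.96 points (SD 0.436, n = 2). That change of -2.15 points had no overlap between the groups (exact permutation p = 0.1, the smallest possible), and it was -0.670 points at the 25 positions with at least 40 calls and -1.29 points with calls pooled.

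Other parts of the genome in the same libraries gave smaller or larger differences. Castaneus mC of autosomal gene bodies was 71.5% ± 0.474 in controls and 71.8% ± 0.624 in depleted libraries, a difference of 0.277 points with overlapping groups. At 964 other Xi positions, outside islands and over 2 kb from starts, the difference was -0.0886 points. Within 2 kb of starts, Xi mC was 52.5% ± 1.54 in controls and 47.5% ± 2.82 in depleted libraries, with no overlap of the groups (exact permutation p = 0.1). The Xi gene body difference lay between these.

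Within gene bodies the Xi difference was negative both inside and outside islands and repeats. It was -1.81 points in islands (20.7% ± 1.09 to 18.9% ± 0.228), -1.57 points outside them (66.1% ± 1.03 to 64.5% ± 0.528), -0.502 points in repeats, where the groups overlapped, and -2.04 points outside repeats. At paired positions it was -2.39 points in repeats and -2.02 points outside them. In islands the Xa was also lower in depleted libraries, by 1.36 points (33.7% ± 0.435 to 32.3% ± 0.0102, no overlap). At the 78 paired island positions the Xa difference was -0.476 points, with overlapping groups, and the Xi difference -1.81 points. Autosomal gene body islands differed by -0.815 points on castaneus, with no overlap, and by -0.175 points on domesticus, with overlap. Without Bcor the Xi difference was -1.87 points.

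**Figure D5:**
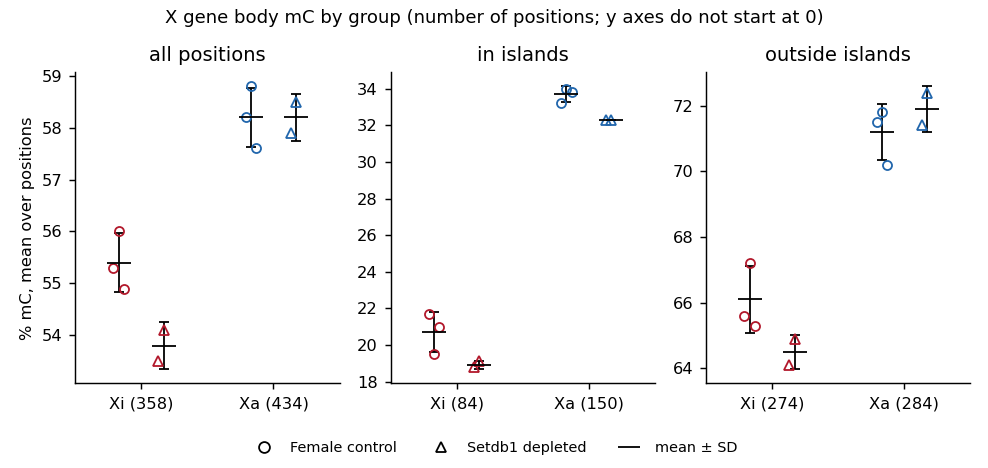
Mean gene body mC (%) in each library on the Xi (red) and the Xa (blue), for all positions, island positions and other positions (numbers in brackets; the Xi and Xa sets differ), with circles for Female control, triangles for Setdb1 depleted and bars for mean ± SD. The axes do not start at 0. Xi libraries of the depleted group lie below all controls in each panel, by 1.63, 1.81 and 1.57 points between the means.

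At the level of genes, the Xi difference was spread thinly. Of 93 X genes measured on the Xi 55 were lower and 38 higher in depleted libraries, with a median of -1.55 points, and of 97 on the Xa 41 were lower, 55 higher and 1 equal, with a median of 0.871 points. Of the 23 genes with at least 3 paired positions, 20 were lower on the Xi and 10 on the Xa. None of 40 Xi genes or 37 Xa genes passed an adjusted p of 0.05 in the quasi-binomial model, in which 0.0308% of castaneus and 0.0323% of domesticus genes of all chromosomes passed. At an unadjusted p under 0.05 there were 2 of the 40 Xi genes and 2 of the 37 Xa genes. The share of all genes at that cut was not counted. limma on log2 ratios of the calls gave 0 on both alleles, with 2 and 4 unadjusted. Fisher's exact test over the summed calls of each group, which ignores the spread between libraries, gave 8 on the Xi (20%) and 9 on the Xa (24.3%), close to the 20.2% and 20.5% of all genes that it called. On the Xa 1 gene, Gm45194, passed without control replicate 3, at -19.0 points.

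The Xi genes with the smallest unadjusted p, none past the threshold, included Nhsl2, Il1rapl1, Bcor and Gm45194. Nhsl2 had 25.6, 22 and 22.5% in controls and 14.5 and 21.9% in depleted libraries, a difference of -5.21 points with no overlap (quasi-binomial model, adjusted p = 0.787). That value rested on depleted replicate 1, since it was -1.51 points without it and -8.91 points without depleted replicate 2. The summed calls of Nhsl2 join unlike places, with Xi means from 12.1 to 95%, so they also depend on the calls of each place. Bcor had 6.18% ± 0.186 and 4.95% ± 0.115 over 82 positions (adjusted p = 0.854), and Gm45194 had 89.4% ± 2.43 and 80.8% ± 2.63 (adjusted p = 0.854). No depleted library reached the controls' range in Nhsl2, Bcor or Gm45194. Il1rapl1, a synaptic receptor, differed by 8.46 points with overlapping groups (adjusted p = 0.850), or by 5.28 points without depleted replicate 2. Its summed calls join 2 unlike places, 6 positions with a mean of 5.57% and 1 position with 83.8%. The 6 positions changed by -1.29 to 4.49 points and the single one by 8.58 points, so the sum also depends on the calls of each place. Il1rapl1 had fewer than 3 paired positions, and the next gene that had them was Vegfd, at -4.15 points with overlapping groups (adjusted p = 0.927).

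On the Xa the smallest unadjusted p was at Araf, with 13.7, 12.3 and 17.6% in controls and 22.3 and 29.7% in depleted libraries. This was 11.5 points higher with no overlap (adjusted p = 0.322), at the place where the Xa had far less mC than the Xi. Gm45194 stood at -14.4 points (adjusted p = 0.322), Trpc5 at -5.65 points (adjusted p = 0.819), Tceanc at 3.79 points (adjusted p = 0.854) and Fgf13, with under 3 paired positions, at 12.2 points (adjusted p = 0.868). Next came Bcor at -1.30 points (adjusted p = 0.882). Several of these Xa values also depended on 1 library. Without depleted replicate 1 they were -8.76 points for Gm45194, -3.01 for Trpc5 and 2.62 for Fgf13, and without depleted replicate 2 Fgf13 was at 21.7 points. Tceanc was at 2.47 points without control replicate 1 and at 5.86 without control replicate 2. The difference between the alleles changed with depletion in 0 of 23 genes by the quasi-binomial model, as in 0% of all 1899 genes tested, with 1 gene at an unadjusted p under 0.05. That gene was Araf, named after its values were seen, where Xi minus Xa was lower by 15.7 points (adjusted p = 0.968).

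Single positions gave no call after depletion either. In the quasi-binomial model 0 of 358 Xi and 0 of 434 Xa positions passed, where 0.00176% of castaneus and 0.0224% of domesticus positions of the genome did. Unadjusted, 16 of the 358 Xi positions had a p under 0.05, 14 lower and 2 higher. Of the 434 Xa positions 19 did, 9 lower and 10 higher. The share of all positions of the genome at that cut was not counted, so no change is read from these counts. limma gave 0 on both alleles, with 34 and 41 unadjusted, while 15 (4.19%) and 18 (4.15%) passed when Fisher's exact test was applied to the summed calls, as did 2.48% of castaneus and 2.48% of domesticus positions of the genome. Of the 14 lower Xi positions, 3 were in Bcor, which held 82 of the 358 Xi positions, and 2 in Nhsl2.

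Counted without a test, the groups of libraries were apart more often downwards on the Xi. The depleted libraries were both below all controls at 42 of 358 Xi positions (11.7%) and both above at 18 (5.03%). Over all castaneus positions of the genome the shares were 4.81% and 4.95%, and in castaneus autosomal gene bodies 9.01% and 9.2%. On the Xa the counts were 41 of 434 (9.45%) below and 36 (8.29%) above, against 4.88% and 5.1% of all domesticus positions and 9% and 10% in domesticus autosomal gene bodies. The Xi share below was only a little higher than in castaneus autosomal gene bodies (11.7% against 9.01%), and the Xi share above was lower (5.03% against 9.2%). On the Xa both shares were closer to those of domesticus autosomal gene bodies. Neighbouring positions can share reads, and none of these shares was tested, so no change is read from them.

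Most reads that cover several positions held calls of 1 state. Among reads with at least 4 calls at paired positions (736 to 971 reads per library and allele), 29.9% ± 3.80 of Xi reads and 28.5% ± 1.87 of Xa reads in controls were mixed, that is, held both methylated and unmethylated calls. The alleles differed by 1.39 points over the 5 libraries (exact sign-flip permutation, two-sided, p = 0.375), by -6.10 points among reads with at least 6 calls, and by 9.58 points without Bcor, in 5 of 5 libraries. Without depleted replicate 1 or 2 the value was 0.542 or 2.27 points. Islands and other positions differed in sign. Outside islands, mixed reads were more frequent on the Xi in 5 of 5 libraries, by 11.9 points, and within islands they were less frequent in 5 of 5, by 7.64 points. Only places with several measured CpGs close together can supply such reads. Outside islands these include Araf, and shares without Araf are not given, so the values there may rest on few places. Outside islands the share of fully methylated Xi reads was 49.9% ± 6.24 in controls and 38.2% ± 3.52 in depleted libraries, and mixed Xi reads made up 43.3% ± 6.32 and 52.3% ± 2.58. On the Xa the fully methylated share there was 39.1% ± 1.82 and 35.6% ± 6.06. Mixed Xa reads there made up 32.2% ± 4.12 in controls and 39.2% ± 1.01 in depleted libraries, with no overlap, so both alleles had more mixed reads.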

How the data were processed

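The authors cut DNA with MspI, converted it with bisulphite, sequenced single-end reads with dark cycles, trimmed them (Trim Galore), aligned them to mm10 with strain differences masked (Bismark) and split them by strain with SNPsplit, without C/T differences (tools per the study's methods and the submitters' processing notes, which also name CASAVA 1.4). The deposited files hold methylation calls, 1 line for each CpG in each read, from which counts were made here; per the file headers the extractor was Bismark 0.13.0. Files carry no coverage filter, and reads that the sequencer had marked as filtered gave 5.34 to 5.66% of calls and were kept. Whether PCR duplicates were removed is not given in the sources used here, so errors from counts cover counting error only.

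Calls were summed per position, and % mC is the methylated share, averaged over positions unless stated. Of 2007909 called positions, 98.8% were reference CpGs. Islands were called on the reference with repeats masked, as runs of sequence found with a running score of 17 per CpG. Each run as a whole had to meet the minima (at least 200 bp, GC at least 0.5, observed to expected CpG at least 0.6). Places are runs of positions less than 100 bp apart. Groups came from the labels. Libraries were the replicates in exact permutation (10 labellings) and sign-flip tests (32 patterns). Genes and positions were tested with a quasi-binomial logistic model fitted to all chromosomes, whose dispersions limma 3.58.1 (R 4.3.3) shrank and which were floored at 1; it was checked on simulated calls. Fisher's exact test and limma on log2((mC + 0.5)/(C + 0.5)) were alternatives. Python 3.11.15, numpy 2.4.6, pandas 2.3.3, scipy 1.17.1, numba 0.67.0 and matplotlib 3.10.9 were used.

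The genes and lists were chosen with earlier results of these data known. Named genes, with at least 3 paired positions, were those past the threshold between the alleles with the same sign in 5 of 5 libraries (at most 10 in each direction), those past it after depletion or, with under 3 such genes, the 5 with the smallest p (taken among genes with at least 3 positions on that allele, which adds Il1rapl1 and Fgf13), all escape genes, and the 3 genes with most paired positions of each other list. Some named genes are not reported here. Sequences are from the GRCm38 reference.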

Additional observations from a re-analysis of the deposited data

How the results depend on the processing

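The lower Xi mC after depletion kept its direction under every alternative run, from -0.552 to -2.12 points, and from -1.31 to -1.98 points without single libraries. The change of the allele difference stayed between -0.670 and -3.0 points. Control and depleted libraries of the same number were also taken as a replicate block. Control replicate 3 has no partner there and adds nothing to the differences. The Xi difference was then -1.88 points, the change of the allele difference -2.07 points and the Xa difference -0.303 points. The call of 1 Xa gene was the only one changed. Deviations of control and depleted libraries correlated at -0.0587 to 0.0587 over all pairs, where depleted replicates 1 and 2 mirror each other by construction. The Xa difference changed sign with more than 20 calls (0.216 points), pooled calls (0.474), without marked reads (0.183), outside islands (0.701), outside repeats (0.0124), with genes weighted equally (1.29), without Bcor (0.160) or Asmt (0.346), and ranged from -0.303 to 0.264 points without single libraries. The allele difference turned to 1.12 points outside repeats and 0.219 without Bcor, and ranged from -1.03 to 0.283 without single libraries, but was -1.48 with more than 20 calls, -1.57 with pooled calls, -2.88 without Araf, -3.26 over 5 kb from starts, -3.47 at 40 calls and -4.34 with genes weighted equally. Against autosomes the first 3 of these were 1.01, 0.120 and -1.14 to 0.202 points. The island contrast turned to -1.33 points outside repeats, but was 4.76 at 40 calls, 4.87 over 5 kb from starts, 5.09 with pooled calls and 10.5 with genes weighted equally. Mixed reads turned to -6.10 points at 6 calls per read, were 9.58 without Bcor, and ranged from 0.542 to 2.27 without single libraries. Genes that differed between the alleles numbered 7 of 23 by limma (76 of 1899 over all chromosomes), which lost Gm15155, Slc9a7, Il1rapl2 and Gm45194. They were 6 of 10 with at least 5 positions (140 of 1051). Without single libraries they were 8 to 11 of 23 or 24 (156 to 200 of 1919 to 1978). Positions numbered 28 of 236 by limma (1313 of 83840 over all chromosomes) and 28 of 114 with more than 20 calls (1530 of 59753). Without single libraries they were 31 to 41 of 236 to 244 (1785 to 2219 of 84973 to 87086). After depletion Fisher's exact test gave 8 Xi and 9 Xa genes and 15 Xi and 18 Xa positions (of all genes it called 20.2% and 20.5%, and of all positions 2.48% on each allele), and leaving out single libraries gave 0 to 1 Xa genes, the 1 being Gm45194 without control replicate 3. The cause of these changes was not tested. Leaving out Bcor, Asmt or Araf, and the repeats for the island contrast, was chosen after seeing the data. The places of Tmem164, Gm15155 and Foxo4 that were far lower on the Xi were not left out on their own.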

Other observations

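Local CpG density and the part of the gene went with different levels on each allele in the controls (n = 3, mean ± SD), which are given as values without a test. Xi mC was 64.8% ± 1.65 with 0 to 5 CpGs in 200 bp (120 positions), 67.2% ± 1.22 with 6 to 10 (130), 36.9% ± 0.744 with 11 to 15 (29) and 28.5% ± 1.13 with 16 or more (79). Bcor, whose positions are mostly intronic and CpG-rich, had 7.36% ± 0.502 at 82 Xi positions and 10.3% ± 0.513 at 100 Xa positions. At its 69 paired positions it had 5.34% ± 0.348 on the Xi. Levels by CpG density or part of the gene without Bcor are not given, so these contrasts may rest on it. Coding exons had 84.2% ± 2.08 on the Xi (60 positions) and 82% ± 0.826 on the Xa (105), against 49.6% ± 1.03 and 50.2% ± 0.979 in introns (288 and 321).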
